A study of Saccharomyces cerevisiae with 6 samples.

Results

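The data described here are the 3 two-colour arrays, of 6 in the series, that compared a KNR4-deleted wine yeast with its parent in mid-exponential phase of alcoholic fermentation, when 10 g of CO2 had been released. The arrays were chosen by that sampling point alone, and no measured value entered the choice. The wild type was EC1118, an industrial Saccharomyces cerevisiae strain used to ferment wine. The mutant was EKD-13, built in EC1118 by deleting both copies of KNR4. Cells grew at 28 °C in 1 L of the synthetic medium MS300, with no further treatment in either strain. Each array set RNA of a mutant vessel beside RNA of a wild-type vessel, and the mutant's RNA carried Cy3 on array 2 and Cy5 on the other arrays. Both vessels of array 1 belonged to fermentation set 1 and those of arrays 2 and 3 to set 2, so a value that separates array 1 from the others cannot be told apart from the set. EKD-13 is a single named strain, and the effect of the deletion cannot be told apart from any other difference between it and EC1118.

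KNR4, also called SMI1 (YGR229C), encodes a protein that binds the MAP kinase Slt2 and links the cell wall integrity pathway to glucan and chitin synthesis. In that pathway sensors in the plasma membrane such as Mid2 and Wsc1 act through Rho1 and protein kinase C on a kinase cascade that ends in Slt2, which activates the transcription factors Rlm1 and Swi4-Swi6. The cell wall of yeast is a mesh of beta-glucan and chitin coated with mannoproteins, many of them held by a GPI remnant. During fermentation of must, cells take up amino acids, make ethanol from glucose and fructose with respiration largely repressed, and begin to store trehalose and glycogen as growth slows.

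Of 15488 spots, 77.0 to 85.6% carried a log2 ratio of mutant over wild type on these arrays, and the printed pair of spots for a gene correlated at 0.761 to 0.866. The 3 arrays resembled each other less. Across genes the log2 ratios of arrays 1 and 3 correlated at 0.477, those of arrays 2 and 3 at 0.385 and those of arrays 1 and 2 at 0.249, and without chromosome XII the 3 values were 0.385, 0.308 and 0.153. Genes are not independent replicates, and these correlations are descriptions. In the limma fit to these 3 arrays no gene passed: 0 of 5622 tested genes (0%) had a Benjamini-Hochberg adjusted p under 0.05, the smallest being 0.093, shared by 102 genes. At an unadjusted p under 0.05 stood 1228 genes (21.8%), 643 higher and 585 lower in the mutant. With 3 arrays the fit has 2 residual degrees of freedom, and its counts depended on the treatment of spread: 248 genes passed when the spread was allowed to follow intensity, and 650 when the printed pair of spots was kept as separate measurements. The authors' deposited table, a limma fit of 6388 genes, called 362 genes higher (5.67%) and 296 lower (4.63%) at an adjusted p under 0.05. Calls below are those of the authors' deposited table, set beside the values of each array.

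Ratios of dim genes were the noisier ones. In the lowest quartile of mean intensity in the authors' deposited table the median SD over the arrays was 0.65 and 44.1% of genes had a ratio on all 3 arrays, against 0.20 and 95.7% in the highest quartile. The authors' deposited table called 0.6% of the genes of the lowest quartile and 21.9% of those of the highest. Among the tested genes that it called, its log2 fold changes were also smaller than the mean of the 3 arrays. The median ratio was 0.29 in the lowest quartile, where it called 10 genes, and 0.44 in quartile 2, where it called 95. In the highest quartile it was 0.87, with 350 called. For a gene under the median intensity with a mean beyond 1 in either direction, the smaller value of the authors' deposited table is therefore given too.

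The deleted gene comes first, as a check on the labels and the direction. KNR4 had a ratio on array 3 only, at -4.51. The authors' deposited table gave it -1.89 with an adjusted p of 2.7e-04. Since the mutant lacks the gene, these values show the direction of the ratio and no fold change.

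Genes of chromosome XII stood higher in the mutant as a group. The median log2 ratio of its 469 tested genes was 0.64 on array 1, 0.83 on array 2 and 0.70 on array 3, a mean of 0.72 ± 0.09 (SD, n = 3 arrays), or 1.65-fold. All 3 arrays were alike in this, and the median of the 5153 tested genes elsewhere lay at -0.04, -0.09 and -0.03 on the same arrays. Over the other 15 nuclear chromosomes the mean of array medians ran from -0.11 for chromosome XIII to 0.03 for chromosome VI. An exact sign-flip test over 3 arrays cannot give a two-sided p below 0.25, which is what the chromosome XII medians gave. DNA copy number was not analysed here.

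**Figure D1:**
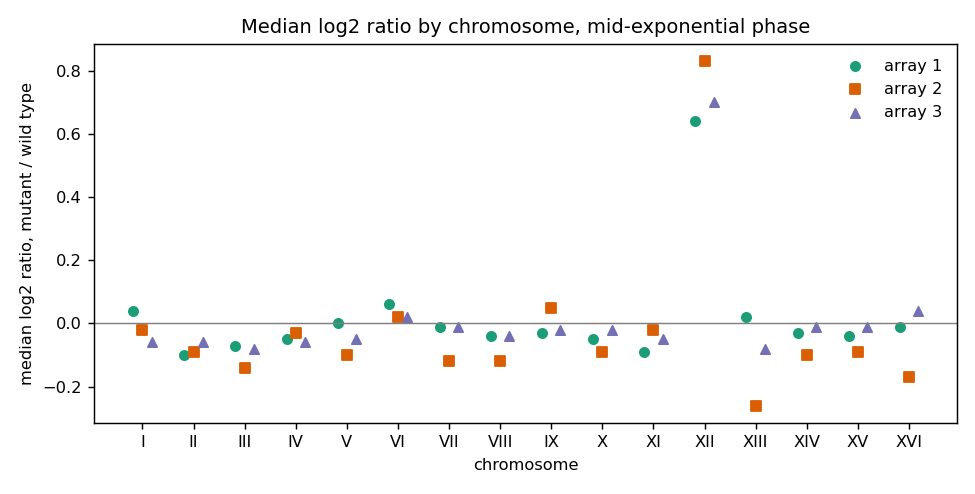
Median log2 ratio of mutant over wild type (y axis) of the tested genes of each nuclear chromosome (x axis) on the 3 mid-exponential arrays, drawn as a point per array. Chromosome XII lies at 0.64, 0.83 and 0.70, and the other chromosomes lie near 0.

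The shift covered most genes of the chromosome and not a few strong ones. A mean above 0 was found for 439 of the 469 (93.6%), against 43.6% of the genes elsewhere, and the 10th, 25th, 75th and 90th percentiles were 0.13, 0.47, 0.98 and 1.34. Of 444 chromosome XII genes with 3 ratios, 361 (81.3%) lay above 0 on every array and 8 below 0 on every array. Over all genes with 3 ratios, 24.4% lay above 0 on every array and 25.8% below. The left arm had a mean of array medians of 0.61 ± 0.13, the right arm between the centromere and the ribosomal DNA 0.77 ± 0.09, and the part beyond the ribosomal DNA 0.74 ± 0.08. All 3 parts of the chromosome thus lay above the rest of the genome, the left arm least. Genes of chromosome XII above the median intensity in the authors' deposited table had a mean of array medians of 0.63 ± 0.10, and those below it 0.89 ± 0.04.

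**Figure D2:**
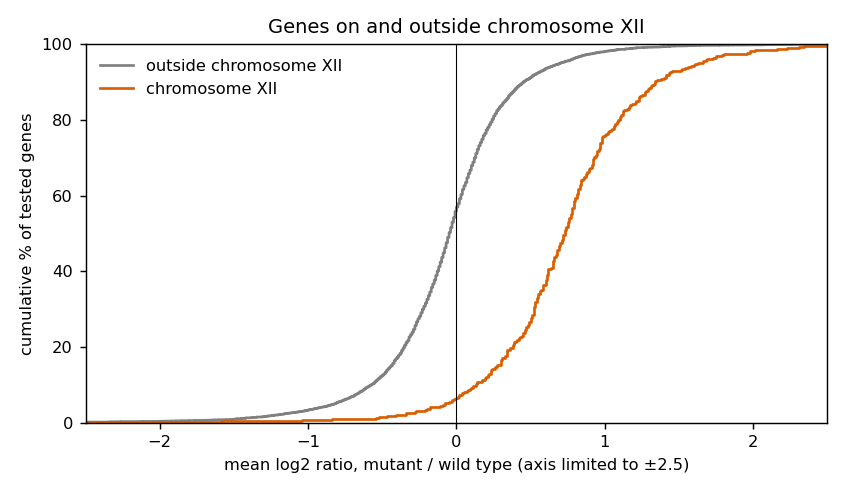
Cumulative percentage (y axis) of the 469 tested genes of chromosome XII and the 5153 tested genes elsewhere by their mean log2 ratio over the mid-exponential arrays (x axis, limited to 2.5 on either side). The curve of chromosome XII is shifted to the right: 93.6% of its genes lie above 0, against 43.6% elsewhere.

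This shift sets how a call on chromosome XII is read. The authors' deposited table called 232 of the 551 chromosome XII genes higher (42.1%) and 3 lower, so that 64.1% of all its higher calls fell there. Outside the chromosome it called 130 of 5837 genes higher (2.23%) and 293 lower (5.02%). Below, a gene of chromosome XII with spot values is therefore given with its distance from the chromosome's own median of 0.72, positive above it.

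**Figure D3:**
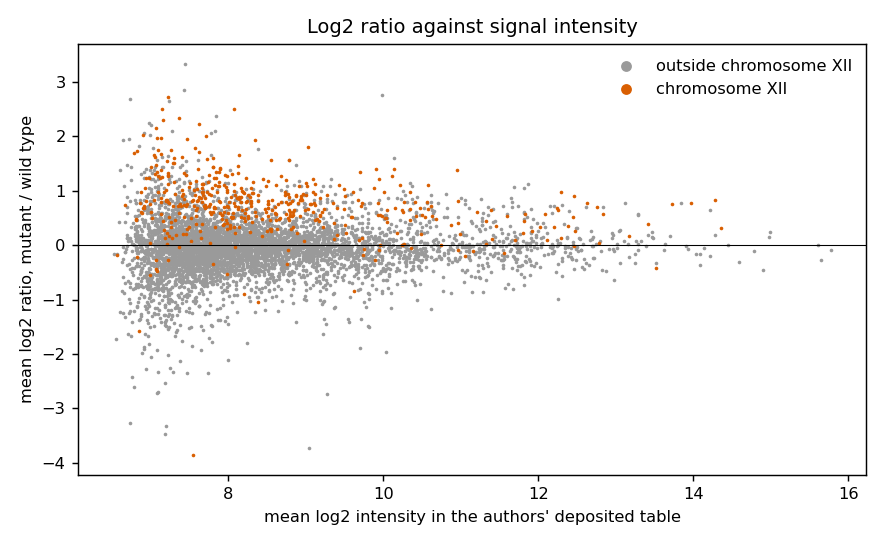
Mean log2 ratio over the mid-exponential arrays (y axis) against the mean log2 intensity in the authors' deposited table (x axis), a point per tested gene. Genes of chromosome XII mostly lie above 0 at low and high intensity, and the scatter is widest at low intensity, where the median SD over arrays is 0.65.

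A few genes of chromosome XII left its common level. Of the 444 with 3 ratios, 22 lay over 0.5 above the chromosome's median on every array and 27 over 0.5 below it. The matching share for genes elsewhere is not given here, so these counts have no background beside them. MID2, the wall stress sensor at the head of the cell wall integrity pathway, stood at 2.27, 2.92 and 2.33 on arrays 1, 2 and 3, a mean of 2.51 ± 0.36 (SD, n = 3), which is 1.78 above the chromosome's median. All 3 arrays were high, and the authors' deposited table called it higher at 1.33 (adjusted p = 2.5e-04). PUN1, a plasma membrane protein made under nitrogen stress, had 1.59, 1.85 and 1.95, a mean 1.07 above the chromosome's median. ACF2, an intracellular beta-1,3-glucanase, had 1.74, 1.54 and 1.84, or 0.99 above it. PCD1, a nudix pyrophosphatase of peroxisomes, had 1.82, 2.17 and 3.04, at a distance of 1.62, and GID11, a substrate receptor of the GID ubiquitin ligase, 2.01, 1.81 and 1.54, at 1.06. These 5 genes were high on every array. The dim ones among them were smaller in the authors' deposited table, ACF2 at 0.64, PCD1 at 0.66 and GID11 at 0.75. TMA10, a small ribosome-associated protein, was less even, at 2.33, 2.47 and 1.02, with a mean 1.22 above the chromosome's median.

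A pair of genes, JLP1 and YLR198C, lay over 1 below the chromosome's median on every array. JLP1, an Fe(II)-dependent sulphonate dioxygenase that frees sulphur from sulphonates, stood at -3.32, -4.13 and -4.14, a mean of -3.86 ± 0.47, or 14.6-fold lower. Its distance from the chromosome's median was -4.59, and all 3 arrays were far from it. The authors' deposited table called JLP1 lower at -1.31 (adjusted p = 4.8e-04). YLR198C, a dubious reading frame that overlaps NOP56, had -0.99, -0.88 and -0.79, at a distance of -1.61. NOP56 itself, a nucleolar protein of ribosome assembly, had 0.42, 0.55 and 0.86, at a distance of -0.11, and signal of overlapping frames cannot be assigned with certainty on spotted DNA.

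Outside chromosome XII the gene with the clearest higher value was INO1, the gene of the enzyme that turns glucose-6-phosphate into inositol phosphate. It stood at 2.75, 3.07 and 2.48, a mean of 2.76 ± 0.30 (SD, n = 3), or 6.79-fold (limma adjusted p = 0.093). The 3 arrays were alike, and the authors' deposited table called it higher at 2.16 (adjusted p = 7.0e-06). Other genes of inositol and phospholipid synthesis did not stand with it: the 31 tested members had a median of -0.03, and the authors' deposited table called 2 of 32 higher, INO1 and the chromosome XII gene CKI1, choline kinase, which lies 0.59 above the chromosome's median, and 1 lower, INM2, an inositol monophosphatase. CHO1, phosphatidylserine synthase, had -0.47, -0.37 and -0.47, and PIS1, phosphatidylinositol synthase, -0.34, -0.48 and -0.25. Neither was called in the authors' deposited table, at -0.28 (adjusted p = 0.072) and -0.30 (adjusted p = 0.052).

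Other high genes had diverse roles. YSR3, a phosphatase of sphingoid base phosphates, had 4.16, 3.02 and 2.83, and the authors' deposited table put it at 0.91 (adjusted p = 0.012). KDX1, a kinase-like relative of Slt2 whose gene is a target of Rlm1, had 1.39, 3.21 and 2.52. All arrays were high for both, with a spread of 0.72 and 0.92, and the authors' deposited table put KDX1 at 1.01. SRL3, also a target of the pathway, had 1.41, 1.67 and 1.91, and SUC2, invertase, which splits sucrose outside the cell, 1.69, 1.64 and 1.09. RTA1, a membrane protein of sterol resistance, had 1.40, 2.02 and 1.27. CSS3, YNR066C and YOL014W, whose functions are not known, had means of 1.77, 2.06 and 1.57 and no array under 1.11. YMR304C-A, a dubious frame that overlaps the glucanase gene SCW10, had 2.32, 1.96 and 2.01, and SCW10 itself 1.77, 1.06 and 0.46. YCL074W, a fragment of a Ty element with many related copies, ranged from 0.34 to 2.89 and is uncertain. The dim genes of this group were again smaller in the authors' deposited table, at 0.76 for SRL3, 0.62 for RTA1, 1.03 for YNR066C, 0.59 for YMR304C-A and 0.37 for YCL074W.

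The lowest values outside chromosome XII included genes of stress and reserve carbohydrates. HSP26, a small heat shock protein that holds unfolded proteins, stood at -2.63, -3.86 and -4.71, a mean of -3.73 ± 1.05, or 13.3-fold lower. The authors' deposited table called it lower at -2.70 (adjusted p = 2.4e-05), the largest size among the genes named here. DIP5, the permease for glutamate and aspartate, had -1.99, -3.00 and -3.22, a mean of -2.74 ± 0.66. Array 1 was the least low for both genes. GPH1, glycogen phosphorylase, had -1.05, -1.74 and -3.11, and PGM2, phosphoglucomutase, -1.09, -1.45 and -1.96. DCS2, a stress-induced inhibitor of the cap-scavenging enzyme Dcs1, had -1.85, -1.86 and -3.31, and RTC3, a protein of RNA metabolism, -1.23, -2.79 and -2.32. These 4 genes were below -1 on every array, and the authors' deposited table put DCS2, the dim one, at -0.88.

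DAD3, a subunit of the DASH complex that couples kinetochores to microtubules, had even values of -1.38, -1.58 and -1.97, and the authors' deposited table called it lower at -1.41 (adjusted p = 2.0e-05). SUL1, a sulphate permease, had -1.55, -1.97 and -1.80, and NIT1, a nitrilase, -1.67, -1.33 and -1.67. The 3 genes were low on every array. NCA3, a wall-associated protein of the SUN family, had -1.09, -1.96 and -2.60. YFL051C, a flocculin-like frame, had -2.13, -3.46 and -1.45. TGS1, the RNA cap trimethylase, rested on array 2, with -0.66, -4.06 and -1.02. The dim genes here were far smaller in the authors' deposited table, at -0.67 for YFL051C, -0.41 for TGS1, -0.80 for SUL1 and -0.69 for NIT1.

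**Figure D4:**
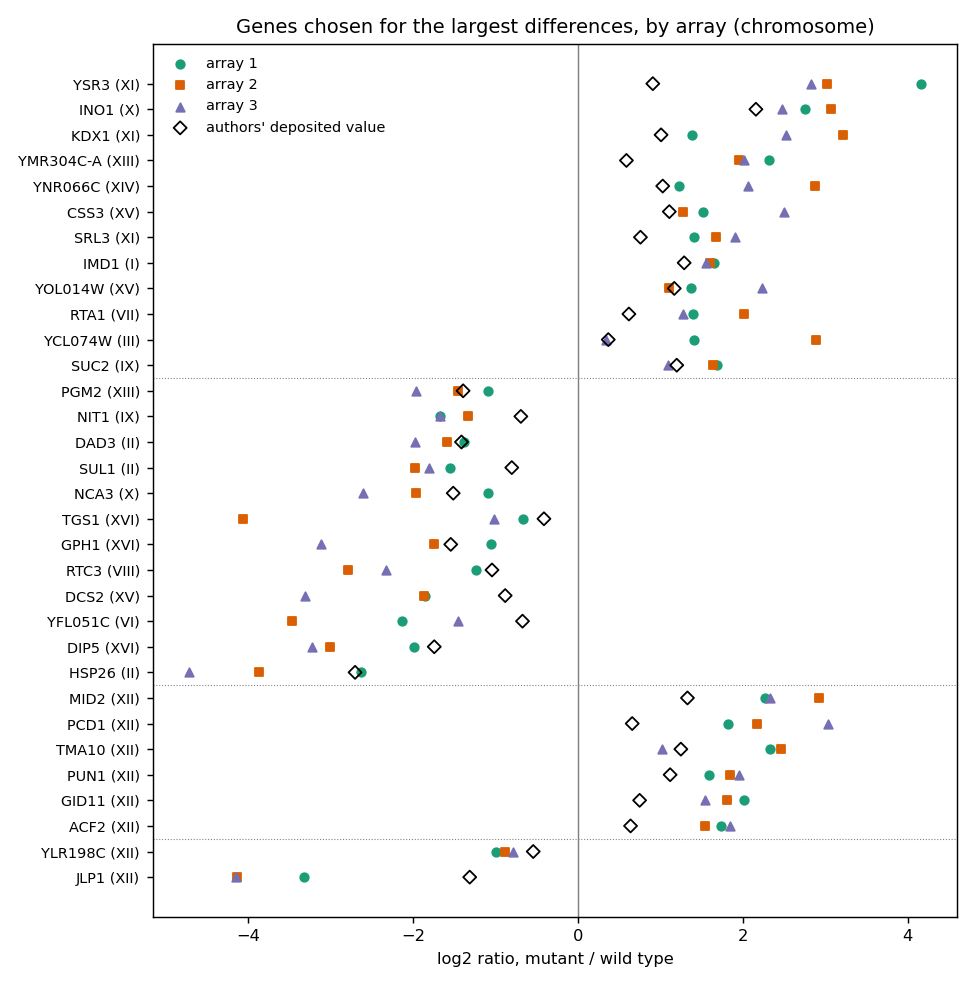
Log2 ratio of mutant over wild type (x axis) on each mid-exponential array for 12 high and 12 low genes outside chromosome XII and, below, 6 high and 2 low genes on it (y axis, chromosome in brackets); open diamonds are the log2 fold changes of the authors' deposited table. Every array lies on the same side of 0 for each gene, by the rule of choice, and the diamonds mostly lie nearer 0 than the arrays.

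Genes of the cell wall integrity cascade were mostly above 0. Of 28 tested members 20 were, with a median of 0.26, against -0.02 over all tested genes, and without chromosome XII the list's median was 0.19 against -0.05. On every array 13 members lay above 0 and 2 below, and the lowest mean was -1.30. The authors' deposited table called 5 of 31 higher, MID2, KDX1, SLT2, PTP2 and SWI6, and 1 lower, KNR4 itself. For this list and those below, the shares called over all genes were 5.67% higher and 4.63% lower. Outside chromosome XII these shares were 2.23% and 5.02%. SLT2, the MAP kinase that ends the cascade, had 1.37, 0.48 and 1.07, and PTP2, a phosphatase that acts on it, 1.22, 1.06 and 1.51. RLM1, the transcription factor below Slt2, had 0.84, 0.58 and 0.73, all above 0, and was not called in the authors' deposited table at 0.27 (adjusted p = 0.103). SWI6, the shared subunit of the Swi4 and Mbp1 transcription factors, lies on chromosome XII and had 1.16, 0.87 and 1.46, a mean 0.44 above the chromosome's median. The authors' deposited table put the dim genes PTP2 and SWI6 at 0.42 and 0.51.

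The wall genes that respond to Slt2 and Rlm1 were also mostly above 0. Their median was 0.47 over 26 tested members and 0.32 over the 23 outside chromosome XII, and 23 of the 26 lay above 0. The array medians were 0.53, 0.38 and 0.19, against 0.12, 0.39 and 0.15 for the cascade. The lists thus differed mainly on array 1, of fermentation set 1. The authors' deposited table called 12 of 29 higher and 1 lower, against 5.67% and 4.63% of all genes. Outside chromosome XII it called 7 of 23 higher and 1 lower, against 2.23% and 5.02% of all genes there. CHS3, the chitin synthase of the lateral wall, had 0.51, 0.78 and 0.66, and SED1, an abundant wall protein, 0.79, 0.44 and 0.50. CRH1, which joins chitin to glucan, had 1.14, 1.02 and 0.22, so array 3 was far lower than the others. YPS1, a yapsin protease on chromosome XII whose spots could not be named with certainty, was called higher in the authors' deposited table at 1.47 (adjusted p = 5.8e-05).

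The 5 Pir proteins, which bind glucan by ester links, differed in direction. CIS3 had 1.35, 0.61 and 0.59 and was called higher in the authors' deposited table at 0.79 (adjusted p = 0.011). PIR3 had 0.94, 1.79 and 0.03 and was also called higher in the authors' deposited table, at 0.68 (adjusted p = 0.022). PIR1 had -0.21, -0.61 and -0.31 and was called lower in the authors' deposited table, at -0.36 (adjusted p = 0.046). HSP150 (0.29, 0.20 and -0.09) and PIR5 (0.15, 1.44 and -0.08) changed sign between arrays. The family is similar in sequence, so its spots may share signal.

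For chitin genes the median was 0.32, with 15 of 21 tested members above 0, and the authors' deposited table called 4 of 23 higher and 0 lower. Of these CHS5 and CTS1 lie on chromosome XII, CHS5 0.46 above and CTS1 at the chromosome's median, and CHS3 and CRH1 lie elsewhere. CHS7, which lets Chs3 leave the endoplasmic reticulum, had 0.86, 0.49 and 0.73 and the activator gene SKT5 0.33, 0.63 and 0.69. GFA1, the first enzyme of chitin precursor synthesis, was above 0 on every array, at 0.56, 0.10 and 0.32. None of these last 3 genes was called in the authors' deposited table (adjusted p = 0.080, 0.286 and 0.053).

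The beta-glucan list as a whole lay near 0, with a median of 0.05 over 27 genes, 17 of them above 0. On every array 8 members lay above 0 and 8 below, and the lowest mean was -1.05. The authors' deposited table called 5 of 30 higher and 1 lower, and outside chromosome XII 2 and 1 of 26. FKS1, the main catalytic subunit of beta-1,3-glucan synthase, had 1.06, 0.83 and 1.40, but lies on chromosome XII, 0.37 above its median. EXG1, the main exoglucanase, lies 0.18 above it. KRE6, which is needed for beta-1,6-glucan, lies on chromosome XVI and had 1.24, 0.73 and 0.92, all high, with 0.62 in the authors' deposited table (adjusted p = 0.0022). GPI-anchored and secreted wall proteins had a median of 0.24 over 35 genes and 0.16 over the 31 outside chromosome XII. Their array medians were 0.14, 0.20 and 0.00. The authors' deposited table called 10 of 43 higher, 4 of them outside chromosome XII, and 3 lower. YGP1, a secreted glycoprotein made when nutrients run short, had -0.74, -0.88 and -0.99, and TIP1, a cold- and anaerobiosis-induced wall mannoprotein, -1.56, -0.94 and -1.05. CCW12, an abundant mannoprotein on chromosome XII, had a mean of 0.78, only 0.06 above the chromosome's median. For protein mannosylation the median was -0.01 over 36 genes, and the authors' deposited table called 0 of 37 higher and 2 lower.

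Targets of calcineurin and Crz1, the calcium branch of wall stress, had a median of 0.18 over 22 genes, and 0.10 over the 20 outside chromosome XII. The authors' deposited table called 8 of 25 higher and 2 lower, and outside chromosome XII 5 and 2 of 22. Several of these, KRE6, SCW10, CRH1 and PUN1, are wall genes described above. CMK2, a calmodulin-dependent kinase, had 1.09, 0.89 and 1.01, and RCN2, a regulator of calcineurin, 0.96, 0.54 and 0.89.

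The seripauperins, small mannoproteins of the PAU family that are made in fermentation and low oxygen, stood higher almost throughout. Of 24 tested members 23 lay above 0, 19 of them on every array, and their median was 0.79, with array medians of 1.01, 0.93 and 0.60. The authors' deposited table called 21 of 24 higher and 0 lower. Of the 20 members outside chromosome XII it called 17, against 2.23% of all genes outside, and their median was 0.80. PAU6 had 1.26, 1.29 and 0.86, PAU24 0.84, 1.21 and 1.08, and PAU5 1.22, 0.94 and 0.68. PAU genes are near-identical in sequence, so the spots cannot be read as independent genes. The other mannoproteins of low oxygen, the DAN and TIR group, had a median of 0.04 over 8 genes and 2 called higher in the authors' deposited table, PAU24 and PAU23, which are also seripauperins by sequence; PAU23 lies on chromosome XII, at its median. DAN1 had 0.07, -0.32 and -0.21, TIR2 0.21, 0.19 and 0.02 and TIR4 -0.23, -0.27 and -0.37.

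General stress genes stood lower in the mutant. Of 41 tested members 9 lay above 0 and the median was -0.40, with -0.25, -0.32 and -0.60 on arrays 1 to 3. The authors' deposited table called 19 of 49 lower, against 4.63% of all genes, and 1, TMA10 on chromosome XII, higher. Outside chromosome XII it called 19 of 47 lower and 0 higher, against 5.02% and 2.23% of all genes there. Besides HSP26, PGM2, GPH1 and RTC3, TSA2, a thioredoxin peroxidase, was low on every array with a mean of -1.24 ± 0.22, and MSC1 had -1.25, -1.26 and -0.83. The authors' deposited table put these dim genes at -0.69 and -0.48. Chaperones as a class lay near 0, at -0.03 over 45 genes, with 0 of 46 called higher and 5 lower in the authors' deposited table. HSP31, a glyoxalase of the DJ-1 family, had -1.31, -0.87 and -1.86. The mitochondrial chaperones SSC1 (-0.45, -0.93 and -0.64) and HSP10 (-0.42, -0.79 and -0.74) were low on every array.

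Trehalose and glycogen genes had a median of -0.37 over 20 genes, 6 of them above 0. The authors' deposited table called 5 of 21 lower and 0 higher. GDB1, the glycogen debranching enzyme, had -0.93, -1.49 and -1.26, TSL1, a regulatory subunit of trehalose synthase, -0.51, -0.74 and -1.53, and GLC3, the branching enzyme, -0.48, -0.30 and -0.82. The 3 genes were below 0 on every array. PIG1, a regulator of glycogen synthase that lies on chromosome XII, had 0.56, 1.28 and 1.18, a mean 0.28 above the chromosome's median, and was not called in the authors' deposited table at 0.19 (adjusted p = 0.298).

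Genes of respiration and the tricarboxylic acid cycle were lower as well. Of 60 tested genes 13 lay above 0, and the median was -0.35. The array medians were -0.12, -0.33 and -0.39, so array 1 was the least low. The authors' deposited table called 22 of 66 lower and 3 higher, and outside chromosome XII 22 of 59 lower and 0 higher, against 5.02% lower over all genes there. LSC2, a subunit of succinyl-CoA ligase, had -1.17, -1.22 and -0.67, and CIT1, mitochondrial citrate synthase, -0.57, -0.37 and -0.75. ATP18, a subunit of the mitochondrial ATP synthase, had -0.69, -0.81 and -1.08. COX13, a subunit of cytochrome c oxidase, had -0.46, -1.88 and -1.92, and CYC7, an isoform of cytochrome c, -0.26, -1.30 and -1.06. For these last 2 genes array 1, of fermentation set 1, was far closer to 0 than arrays 2 and 3. ATP14, another ATP synthase subunit, lies on chromosome XII and had 0.51, 0.81 and 0.84, which is the chromosome's median.

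Glycolysis and the formation of ethanol, acetate and glycerol lay near the background, with a median of -0.11 over 36 genes and 3 called higher and 4 lower of 39 in the authors' deposited table. PDC5, a pyruvate decarboxylase, and FPS1, the glycerol channel, were high on every array, with means of 0.84 and 1.21, but both lie on chromosome XII, 0.12 and 0.49 above its median. HXK2, the hexokinase of glucose repression, had 0.97, 0.35 and 0.75, and the mitochondrial alcohol dehydrogenase ADH3 -0.54, -0.49 and -0.31. Hexose transport had a median of 0.00 over 20 genes, and the authors' deposited table called 1 higher, GAL2 on chromosome XII, at a distance of -0.34 from its median, and 1 lower, MTH1, of 25. HXT6 and HXT7, which are near-identical, had means of 0.22 and 0.19.

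**Figure D5:**
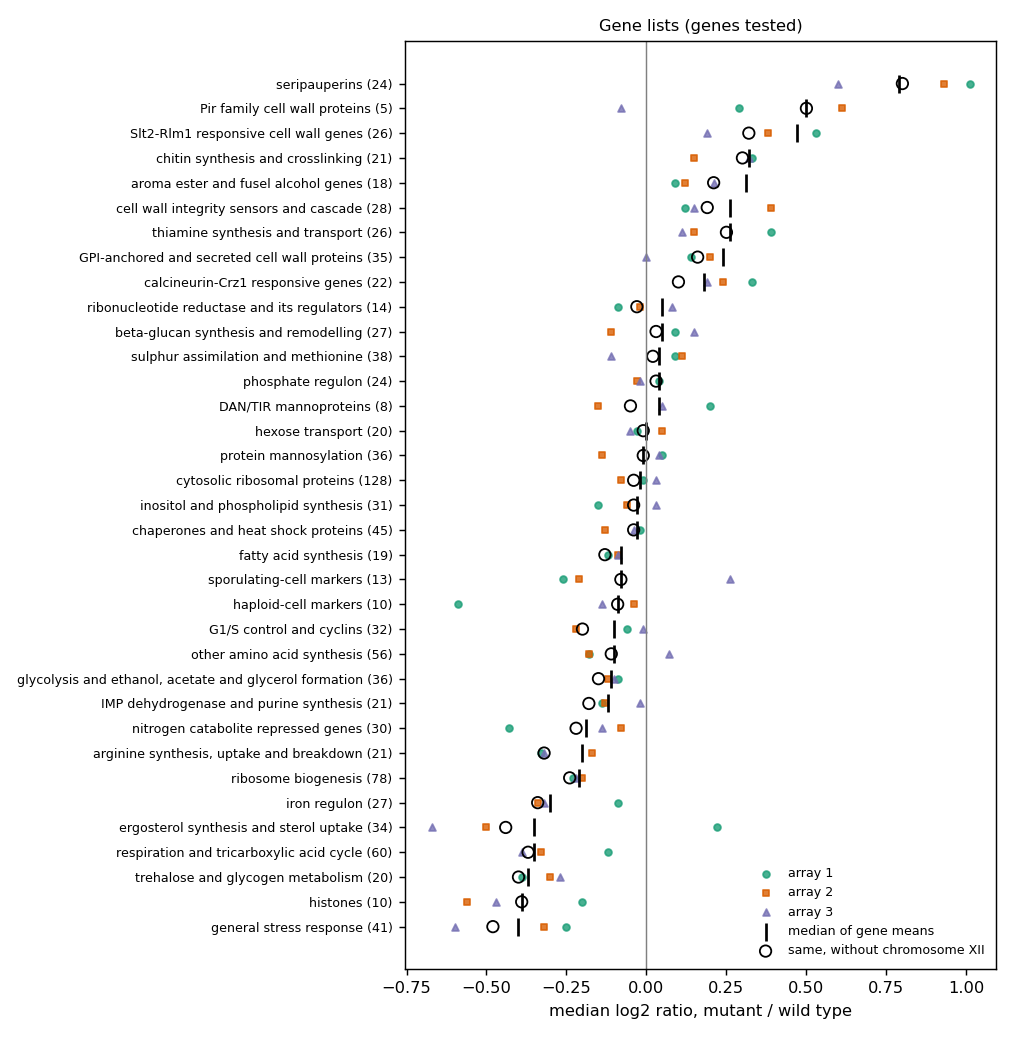
Median log2 ratio of mutant over wild type (x axis) of 35 gene lists (y axis, tested genes in brackets) on each mid-exponential array, with the median of the gene means over all tested members and without chromosome XII. The seripauperins lie highest at 0.79 and general stress genes lowest at -0.40, and for ergosterol genes array 1 lies apart at 0.22 from -0.50 and -0.67.

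Arginine genes, a list that joins synthesis, uptake and breakdown, were lower. The list's median was -0.20 over 21 genes and -0.32 over the 19 outside chromosome XII, and the authors' deposited table called 7 of these 19 lower and 0 higher. CPA1, a subunit of the carbamoyl phosphate synthetase of arginine synthesis, had -1.67, -1.32 and -1.28. ARG1, argininosuccinate synthetase, had -1.58, -1.61 and -1.15, and ARG4, argininosuccinate lyase, -1.49, -1.21 and -0.78. ARG3, ornithine carbamoyltransferase, had -0.91, -0.44 and -0.82. All of them were below 0 on every array. For the synthesis of other amino acids the median was -0.10 over 56 genes, and the authors' deposited table called 3 of 58 higher and 9 lower. LEU2, of leucine synthesis, had -0.85, -0.68 and -0.80, and LYS20, homocitrate synthase of lysine synthesis, -0.49, -0.46 and -0.95. AAT2, cytosolic aspartate aminotransferase on chromosome XII, was called higher in the authors' deposited table at 0.86 (adjusted p = 2.7e-04), and its spots could not be named with certainty.

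Genes under nitrogen catabolite repression had a median of -0.19 over 30 genes, none of them above 0 on all 3 arrays. The authors' deposited table called 3 of 35 lower and 0 higher. GAP1, the general amino acid permease, had -2.01, -1.53 and -0.94, AGP1, a broad amino acid permease, -0.43, -1.05 and -0.92, and MEP3, an ammonium permease, -1.11, -0.40 and -0.31. These 3 permeases and DIP5 were low on every array, and the authors' deposited table put GAP1, which is dim, at -0.68. Sulphur genes were mixed, with a median of 0.04 over 38 genes and 3 called higher and 5 lower of 40 in the authors' deposited table. The lower calls included JLP1, SUL1 and MUP1, a methionine permease (-0.80 and -1.96 on arrays 1 and 3, -0.82 in the authors' deposited table), while MET2 (0.35, 1.00 and 0.63) and MET10 (0.68, 0.27 and 0.60), enzymes of the methionine pathway, were above 0.

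The IMP dehydrogenase genes, of the first step from IMP to GTP, stood above 0, and the named ADE genes with spot values did not. IMD1 had 1.65, 1.60 and 1.56 and IMD2 1.38, 1.31 and 0.96, and IMD4 on chromosome XIII 0.55, 0.83 and 0.50. The 3 were high on every array, and IMD3 on chromosome XII, at 0.51, 0.84 and 0.63, lay at the level of its chromosome. These genes are close to each other in sequence, IMD1 and IMD2 most of all, so their spots are uncertain on their own. ADE1 had -0.52, -0.54 and -0.67 and ADE17 -0.55, -0.62 and -0.62, both enzymes of purine synthesis. ADE16, a chromosome XII paralogue of ADE17, was called higher in the authors' deposited table at 0.82 (adjusted p = 2.7e-04), without spots that could be named with certainty. The whole list had a median of -0.12 over 21 genes, with 7 of 23 called higher and 2 lower in the authors' deposited table. Outside chromosome XII the authors' deposited table called 3 of 19 higher and 2 lower, against 2.23% and 5.02% of all genes there.

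All 10 tested histone genes had means below 0, from -0.86 to -0.12, with a median of -0.39. The authors' deposited table called 6 of 11 lower and 0 higher. HTB1, a histone H2B gene, had -0.53, -1.19 and -0.87, its copy HTB2 -0.31, -0.38 and -0.81, and HHT2, for histone H3, -0.20, -0.55 and -0.63. Array 1 was the least low for each. Histone genes come in near-identical pairs and are uncertain on their own. CSE4, the histone of centromeres, was called lower in the authors' deposited table at -0.64 (adjusted p = 7.8e-04). G1/S genes and cyclins had a median of -0.10 over 32 genes with 1 called higher and 1 lower in the authors' deposited table, the latter POL30 (-0.51, -1.10 and -0.72), the sliding clamp of DNA replication. Of the ribonucleotide reductase genes RNR3, the DNA damage-induced large subunit, had -0.87, -0.55 and -0.48, and HUG1, an inhibitor of the enzyme, 0.27, 0.66 and 0.60. That list had a median of 0.05 over 14 genes with 3 called higher and 1 lower in the authors' deposited table.

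Ribosome biogenesis genes had a median of -0.21 over 78 genes, 22 of them above 0, and array medians of -0.23, -0.20 and -0.22. The authors' deposited table called 3 of 79 higher and 5 lower, and outside chromosome XII 1 and 5 of 73, where 5.02% of all genes were called lower. DBP2, an RNA helicase, had -0.72, -1.27 and -1.17, NOG2, a nucleolar GTPase, -0.60, -1.21 and -1.25, and NSR1, a nucleolar protein, -0.56, -0.73 and -0.67. CBF5, the pseudouridine synthase of box H/ACA particles, lies on chromosome XII and had 0.78, 1.04 and 0.71, a mean 0.12 above the chromosome's median. Cytosolic ribosomal protein genes, which come as near-identical pairs, had a median of -0.02 over 128 genes, the same as all genes, with 11 of 137 called higher and 8 lower in the authors' deposited table. RPS30B had 0.63, 0.66 and 0.85 and RPL22B -1.51, -2.02 and -0.62, the latter at -0.63 in the authors' deposited table.

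Ergosterol genes separated the arrays. The median of the 34 tested genes was 0.22 on array 1, of fermentation set 1, and -0.50 and -0.67 on arrays 2 and 3, of set 2. The authors' deposited table called 6 of 34 lower and 2 higher. IDI1, isopentenyl diphosphate isomerase, had -0.22, -1.29 and -1.12, and CYB5, the cytochrome b5 of sterol and lipid synthesis, -0.05, -1.59 and -1.30. Array 1 was near 0 for both. ERG4, the last enzyme of the pathway, was even, at -0.40, -0.51 and -0.39, and UPC2, the activator of sterol genes, stood higher on every array, at 0.87, 0.95 and 0.97. The desaturase gene OLE1, of unsaturated fatty acids, had the pattern of IDI1, with 0.10, -0.97 and -1.06, and PHO84, the phosphate permease, -0.34, -2.15 and -2.31, though PHO84 is dim and was not called in the authors' deposited table, at -0.46 (adjusted p = 0.085). Across all genes with 3 ratios, 17 lay within 0.25 of 0 on array 1 and below -1 on both other arrays. The same count was 3 with array 2 near 0 and 8 with array 3 near 0. In the other direction, with both other arrays above 1, the counts were 6, 4 and 4 for arrays 1, 2 and 3. The share of the fermentation set in these values cannot be told apart from array 1 itself. Fatty acid synthesis had a median of -0.08 over 19 genes, with 4 of 20 called lower and 1 higher in the authors' deposited table.

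Of the remaining lists, thiamine genes had a median of 0.26 over 26 genes. The authors' deposited table called 5 of 27 higher, 4 of them outside chromosome XII, and 1 lower. On every array 11 members lay above 0 and 4 below, NRT1 among the latter at -0.52, -0.69 and -0.74. THI22, THI20 and THI6, of this list, had means of 0.77, 0.60 and 0.66 and were above 0 on every array, and THI20, THI21 and THI22 are similar in sequence. Genes of aroma esters and fusel alcohols had a median of gene means of 0.31 over 18 genes and 0.21 over the 16 outside chromosome XII. Their array medians were lower than 0.31, at 0.09, 0.12 and 0.21. The authors' deposited table called 4 of 20 higher and 2 lower. ARO9, an aromatic aminotransferase, had 0.46, 0.71 and 1.13 and ARO10, a decarboxylase of the same route, 0.10, 0.54 and 0.67. ATF2, an alcohol acetyltransferase, had 0.85, 0.16 and 0.71, while EEB1, an acyltransferase of ethyl esters, had -0.30, -0.76 and -0.50. The phosphate regulon had a median of 0.04 over 24 genes with 3 called higher and 0 lower in the authors' deposited table, and the iron regulon -0.30 over 27 genes with 2 higher and 2 lower. Markers of haploid and of sporulating cells were also read, since EC1118 is a diploid strain. Of 19 haploid-cell markers 10 were tested, with a median of -0.09, and of 20 sporulating-cell markers 13, with a median of -0.08. The authors' deposited table called 0 of either, and most of these genes were dim, with 1 tested member of each list above the median intensity.

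The values were set beside the 3 stationary arrays of the same strains, sampled at 70 g of released CO2, to see which of them differed by phase. The limma test of the difference, on 6 arrays and 4289 genes, called 5 genes (0.117%), and 548 had an unadjusted p under 0.05. The 5 were INO1, RNR3, AZR1, VHR2 and HXT1. Of these, AZR1, VHR2 and the hexose transporter gene HXT1 fell outside the rule for named genes, and their values are not given here. INO1 was higher in the mutant in mid-exponential phase and lower in stationary phase, where it stood at -2.64, -2.59 and -3.18. The difference was 5.57 ± 0.28 (SE) on the log2 scale (limma adjusted p = 0.0028), and the 2 phases did not overlap. RNR3 was below 0 in both, at -3.07, -2.84 and -2.95 in stationary phase, a difference of 2.32 ± 0.22 (limma adjusted p = 0.042). Some vessels served both phases, and with the array number as a block INO1 was still called (limma adjusted p = 0.040) and RNR3 was not (limma adjusted p = 0.354). RNR3 was also called in 1 of 6 fits that left out an array, with limma adjusted p from 0.027 to 0.313, against 6 of 6 for INO1, from 0.014 to 0.044. The chromosome XII medians were 0.64, 0.52 and 1.02 on the stationary arrays, a mean of 0.73, and the phases differed by -0.01 (exact permutation p = 0.9, where 0.1 is the smallest that 3 against 3 arrays allow).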

How the data were processed

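Total RNA, 5 µg per sample per the labels' protocols, was labelled and hybridised to spotted two-colour arrays. The authors deposited log2 ratios per spot, made with R 2.9.2 and limma per the submitters' processing notes (for the array data, the sources used here do not state how background, normalization and missing spots were handled). The ratios of arrays 1, 2 and 3 had medians of -0.004, -0.027 and -0.014. The direction, mutant over wild type, was read from the dyes in the labels and, on array 3, from KNR4. The dye-swapped array had been turned before deposit, as seen from the genes that the authors called higher. Of the 344 such genes with 3 ratios, 100.0, 100.0 and 99.4% lay above 0 on arrays 1, 2 and 3. The authors' deposited tables hold, per the file headers, values for 6388 genes: the log2 fold change, the mean intensity on the log2 scale, the t score that limma moderates, the p-value with and without adjustment and, in the stationary table only, a linear fold. The authors' list of changed genes held the rows with an adjusted p under 0.05 (658), as checked.

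Spots took gene names through plate wells, found for 6324 genes. In row E of plates 10 to 19 spot values and the authors' log2 fold changes correlated at 0.348, against 0.79 elsewhere, so the 228 genes of those wells are given from the authors' deposited table only. Symbols of 5849 genes came from the R64 annotation, and 539 kept the name in the files. Chromosomes follow systematic names. The 128 positions without spotted DNA were left out.

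Spots of a gene were averaged. Genes with a ratio on at least 2 of the 3 arrays were tested against 0 with limma 3.58.1 in R 4.3.3 (2 residual and 1.88 prior degrees of freedom), two-sided, with Benjamini-Hochberg adjustment over 5622 genes; the script was tested on simulated data. Phases were compared in a limma model of 6 arrays. The labels name separate vessels for each array of a phase. Some vessels served both phases; deviations of same-numbered arrays from phase means correlated at 0.08, 0.21 and -0.05, so array numbers were not used as a block. Tables were made in Python 3.11.15 (numpy 2.4.6, pandas 2.3.3) and figures in matplotlib 3.10.9.

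The rule for named genes took KNR4 with its neighbours DIE2, YGR228W and BNS1, whose values are not printed here; genes with the same sign on 3 arrays and called with that sign by the authors, the 12 highest and 12 lowest outside chromosome XII and 6 highest and 4 lowest on it (2 existed); and up to 5 per list by limma p and up to 5 by the authors' p. NOP56 and SCW10 came from lists. The members and the 35 gene lists were chosen with earlier results of these data known.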

Additional observations from a re-analysis of the deposited data

Results flagged for a closer look

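INO1 and RNR3 differed between mid-exponential and stationary phase in the limma test of the difference, by 5.57 and 2.32 on the log2 scale (adjusted p = 0.0028 and 0.042). With the array number as a replicate block INO1 was called and RNR3 was not (limma adjusted p = 0.040 and 0.354), and over all alternatives the adjusted p of RNR3 ran from 0.027 to 0.354.

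A further 8 genes named above, each with a ratio on every array, had all mid-exponential arrays on one side of 0 and all stationary arrays on the other. The differences, mid-exponential minus stationary, were 1.64 for PAU6, 1.03 for PAU23, 1.60 for UPC2, 1.35 for CMK2, -1.93 for PIR1, -0.96 for PIS1, -0.97 for HSP10 and -0.79 for ADE17. These 8 genes did not pass the limma test of the difference, and their adjusted p ran from 0.142 for PAU6 upward. The share of such genes over all genes is not given here, so the 8 cannot be set against a background. Many named genes were also chosen for an equal sign on the mid-exponential arrays. For UPC2 stationary array 3 stood apart at -1.82 from -0.09 and -0.08. The count leaves out genes with 2 stationary ratios. Of those named above, PHO84, JLP1, RTA1, HUG1 and MEP3 also had opposite signs on every measured array. Their differences were -6.73, -4.31, 2.82, 1.56 and -0.70, and none passed (limma adjusted p = 0.060, 0.060, 0.085, 0.288 and 0.465). PHO84, JLP1 and RTA1 are dim.

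Positions listed as without spotted DNA carried ratios. On arrays 1, 2 and 3, 36, 27 and 40 of 128 such positions had a log2 ratio, or 28.1, 21.1 and 31.2%. Their medians were 0.20, 1.18 and 0.22, so array 2, the dye-swapped one, stood highest.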

How the results depend on the processing

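The count of 0 called genes, with 1228 at an unadjusted p under 0.05, was also 0 with the arrays brought to 1 spread, with ratios required on all 3 arrays, with a dye term, with centring on genes outside chromosome XII, with chromosome XII left out, with the row E wells kept, and without any single array (0 to 0). It was 9 with all 6 arrays in 1 model, 248 with a trend on intensity, 650 with printed spots kept apart and 658 in the authors' deposited table. Chosen after seeing the data, a fit to genes above the median intensity called 223, of which 104 lie on chromosome XII, and the same fit without chromosome XII called 2, IMD1 and INO1. The chromosome XII median of 0.72 was 0.67 to 0.76 without each array in turn, 0.77 when centred, 0.63 above the median intensity and 0.34 in the authors' deposited table. The 5 genes that differed between phases became 1 with the array number as a replicate block (INO1, adjusted p = 0.040), 3 with 1 spread, and 1 to 47 without an array: 2, 1 and 1 without mid-exponential array 1, 2 or 3, and 1, 47 and 2 without stationary array 1, 2 or 3. The cause was not tested. Of 210 list medians under alternatives 12 had the other sign; signs of single genes are not counted, since most were chosen for an equal sign on the 3 arrays. With 3 arrays, and signal near background for dim genes, precision is limited, and p-values measure the spread between these vessels only.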

Other observations

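Genes of the mitochondrial genome had a median log2 ratio of -0.20 on array 1, 1.48 on array 2 and -0.09 on array 3, over 27 tested genes. Array 2, where the mutant was in Cy3, stood apart. On the stationary arrays the medians were -0.02, -0.15 and -0.86, and array 2, with the mutant again in Cy3, lay between the others. The cause was not tested.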
